A study of Chlamydomonas reinhardtii with 18 samples.

Results

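Some transcripts of the green alga Chlamydomonas reinhardtii differed between nitrite-treated and control cultures in the first 3 h and no longer did so, by ratio, at 24 h. These genes were picked by their measured ratios. The mean level over the 6 nitrite libraries of 15 min and 3 h, divided by that over the 6 matching control libraries, had to be at least 1.6 (early rises) or at most 0.625 (early falls). The nitrite-to-control ratio at 24 h had to lie between 0.8 and 1.25, and the higher early mean had to reach 5 CPM (a gene's reads in proportion to all reads of its library, after scaling by edgeR's TMM factors). The rule gave 59 genes, 25 early rises and 34 early falls, of 13564 genes with enough reads to test and 17766 features in the tables. The ratios were computed on means plus 0.5 CPM. They are a description and not a finding, since the members were chosen by them, and the names early rise and early fall stand for the rule and not for a test.

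All cells were of strain 6145c and were kept in darkness at 25 °C. Nitrite was added to 10 mM in the 3 flasks of the nitrite arm, and the 3 control flasks received no nitrite. Polyadenylated RNA of both arms was sequenced 15 min, 3 h and 24 h later, which made 18 libraries in 6 groups of 3. The labels name 3 flasks per arm and 3 sampling times and do not say which flask gave which library. The tests below treat all libraries as independent.

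In algae and plants nitrite is normally reduced to ammonium in the chloroplast, with electrons from ferredoxin that photosynthesis supplies in the light. In darkness this sink is weak, and part of the nitrite can be turned into nitric oxide, a reactive signal molecule. Nitric oxide can in turn be reduced to nitrous oxide, the gas named in the study's title. Neither the tables nor the reference gene table pairs the 59 identifiers with names, proteins or products. The members are therefore given by identifier, with no function.

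The libraries held 6695500 to 8469882 reads in genes. A group of 3 libraries stood apart. The library labelled nitrite 15 min number 2 lay at -11.9 on the second principal component, near those of nitrite at 3 h (-14.8 and -12.8), while the others of its group lay at 39.8 and 40.4. The library labelled nitrite 3 h number 2 lay at 43.4, near those of nitrite at 15 min. The library labelled control 3 h number 3 had 36.5% multiply aligned reads, against 16.7% to 21.6% elsewhere, and the lowest scaling factor, 0.604 against 0.660 to 1.44. All 3 were kept under their labels, and results without them stand beside those with them. Pooling 15 min and 3 h, as the rule does, keeps both nitrite libraries in the same sum.

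Few of the genes with an early difference met the 24 h window on the rise side. Of 279 genes with an early ratio of at least 1.6 and at least 5 CPM, 25 (8.96%) were within the window at 24 h, 242 (86.7%) were above it and 12 were below it. Of 91 genes with an early ratio of at most 0.625, 34 (37.4%) were within the window, 32 were below it and 25 were above it. Among all genes tested, 39.4% had a 24 h ratio within the window. The limits cut through a continuous range. The last early rises inside the limit had early ratios of 1.61 and the next genes outside 1.595 and 1.59. On the other side the last early falls inside stood at 0.620 and 0.616, and the next genes outside at 0.628 and 0.631.

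**Figure D1:**
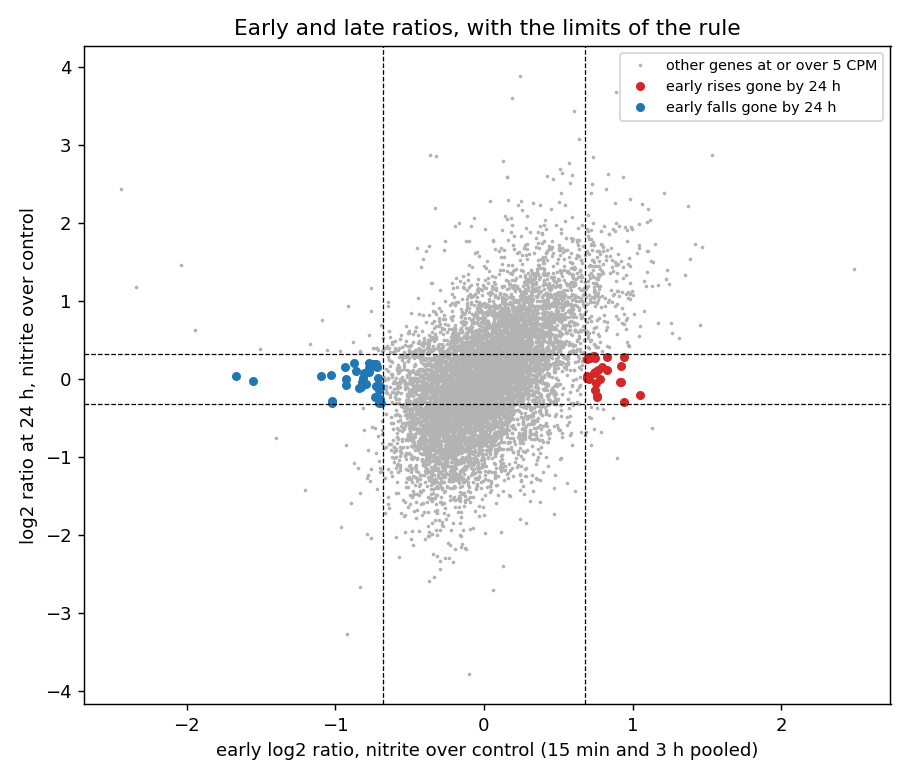
Nitrite-to-control log2 ratio at 24 h (vertical axis) against the early log2 ratio of 15 min and 3 h pooled (horizontal axis), for genes of at least 5 CPM. Dashed lines are the limits of the rule. The 25 early rises (red) and 34 early falls (blue) lie in the outer parts of the band around 0, and 242 genes lie above the band on the right.

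Among the early rises the early ratio ran from 1.61 to 2.07, with a median of 1.69, and the 24 h ratio from 0.816 to 1.23. The higher early mean had a median of 16.6 CPM (5.43 to 368.1), against 7.76 CPM for all genes tested, which had no floor. At 7 of the 25 it exceeded 50 CPM. The nitrite libraries lay above the control libraries without overlap at both 15 min and 3 h in 12 of the 25 (2.5% of all genes tested), and in 6 of them no early nitrite library was as low as any early control library (1.57% of all genes). The rule used these same libraries, so nothing is read from these shares.

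Cre14.g627400 (chromosome 14, 2807794 to 2811298 of assembly Chlamydomonas_reinhardtii_v5.5) had the largest early ratio among rises without overlap at either time, at 1.92. Its nitrite libraries held 42.0, 30.2 and 41.0 CPM at 15 min and its control libraries 17.2, 21.5 and 27.4 CPM. At 3 h they held 25.3, 54.2 and 22.5 CPM against 17.4, 10.3 and 16.8 CPM. Every early nitrite library exceeded the control libraries of its own time, and the highest nitrite value of 3 h was that of number 2. At 24 h the libraries overlapped, at 9.86, 13.8 and 16.7 CPM with nitrite and 11.6, 8.33 and 12.8 CPM without. Both arms were then below every early nitrite library.

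Cre04.g228208 (chromosome 4, 3529518 to 3536103) came next, with an early ratio of 1.90. Its 6 early nitrite libraries lay close together, at 16.2, 18.3 and 17.3 CPM at 15 min and 16.9, 17.1 and 14.6 CPM at 3 h. Its controls were at 14.4, 11.7 and 8.32 CPM at 15 min and spread over 10.6, 4.82 and 1.73 CPM at 3 h. The nitrite arm was steady over 3 h, and the spread lay in the control arm at 3 h, where number 3 was lowest. At 24 h both arms stood near 8 CPM, at 8.77 ± 1.54 with nitrite and 7.72 ± 0.596 without (SD, n = 3 each).

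The early rises with most reads were Cre06.g276200 and Cre17.g730450. Cre06.g276200 (chromosome 6, 3225141 to 3228899) held 339, 377 and 372 CPM with nitrite at 15 min against 211, 243 and 306 CPM without, and 368, 469 and 284 CPM against 264, 138 and 156 CPM at 3 h. Its arms did not overlap at either early time, and at 24 h they stood at 259 ± 18.8 and 210 ± 30.8 CPM (SD, n = 3 each). Even then its lowest nitrite library, at 243 CPM, was just above its highest control library, at 239 CPM. Cre17.g730450 (chromosome 17, 4221441 to 4228212) held 175 ± 26.5 CPM with nitrite and 126 ± 9.55 CPM without at 15 min, 165 ± 68.4 and 70.1 ± 27.5 CPM at 3 h, and 74.1 ± 13.4 and 66.6 ± 8.63 CPM at 24 h. In this gene, too, the lowest early value was that of control 3 h number 3, at 48.0 CPM.

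Among the early falls the early ratio ran from 0.315 to 0.620, with a median of 0.580, and the 24 h ratio from 0.808 to 1.16. The higher early mean had a median of 9.27 CPM, against 16.6 CPM for the rises and 7.76 CPM for all genes tested. It was below 10 CPM in 20 of the 34 and exceeded 50 CPM in 2. In 15 of the 34 the nitrite libraries lay below the control libraries without overlap at both early times (2.24% of all genes), and in 9 all 6 early nitrite libraries lay below all 6 early control libraries (1.07% of all genes). As for the rises, these shares follow from the rule.

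Cre02.g144450 (chromosome 2, 7438239 to 7441040) had the lowest early ratio among falls without overlap, at 0.467. Its control libraries held 17.2, 20.6 and 19.9 CPM at 15 min and 20.6, 13.2 and 22.7 CPM at 3 h, while its nitrite libraries held 13.6, 5.11 and 13.8 CPM and then 4.50, 9.76 and 4.94 CPM. In the nitrite arm number 2 was the lowest of its group at 15 min and the highest at 3 h. At 24 h both arms were low, at 7.07 ± 2.63 CPM with nitrite and 6.86 ± 1.75 CPM without (SD, n = 3 each).

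Cre12.g513600 (chromosome 12, 3574463 to 3577145), with an early ratio of 0.493, was separate in all 12 early libraries. The 6 nitrite libraries held 2.57 to 3.91 CPM and the 6 control libraries 4.2 to 10.9 CPM. By 24 h the arms had 1.59 ± 0.636 and 2.09 ± 0.590 CPM, on 28 and 48 reads in all.

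The early falls with most reads were Cre08.g372100 and Cre03.g162850. Cre08.g372100 (chromosome 8, 2518227 to 2522077) held 114, 58.3 and 106 CPM with nitrite at 15 min against 214, 162 and 133 CPM without, and 57.2, 102 and 69.5 CPM against 144, 139 and 116 CPM at 3 h. All 6 early nitrite libraries were below all 6 early control libraries. At 24 h its arms overlapped at a much lower level, 20.3, 19.6 and 18.9 CPM with nitrite and 16.2, 22.5 and 25.1 CPM without. Cre03.g162850 (chromosome 3, 2890833 to 2893133) had overlapping arms at 15 min, with 65.9, 19.7 and 39.4 CPM against 63.6, 70.4 and 67.5 CPM, and separate arms at 3 h, with 27.8, 40.2 and 20.3 CPM against 62.8, 54.1 and 70.7 CPM.

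**Figure D2:**
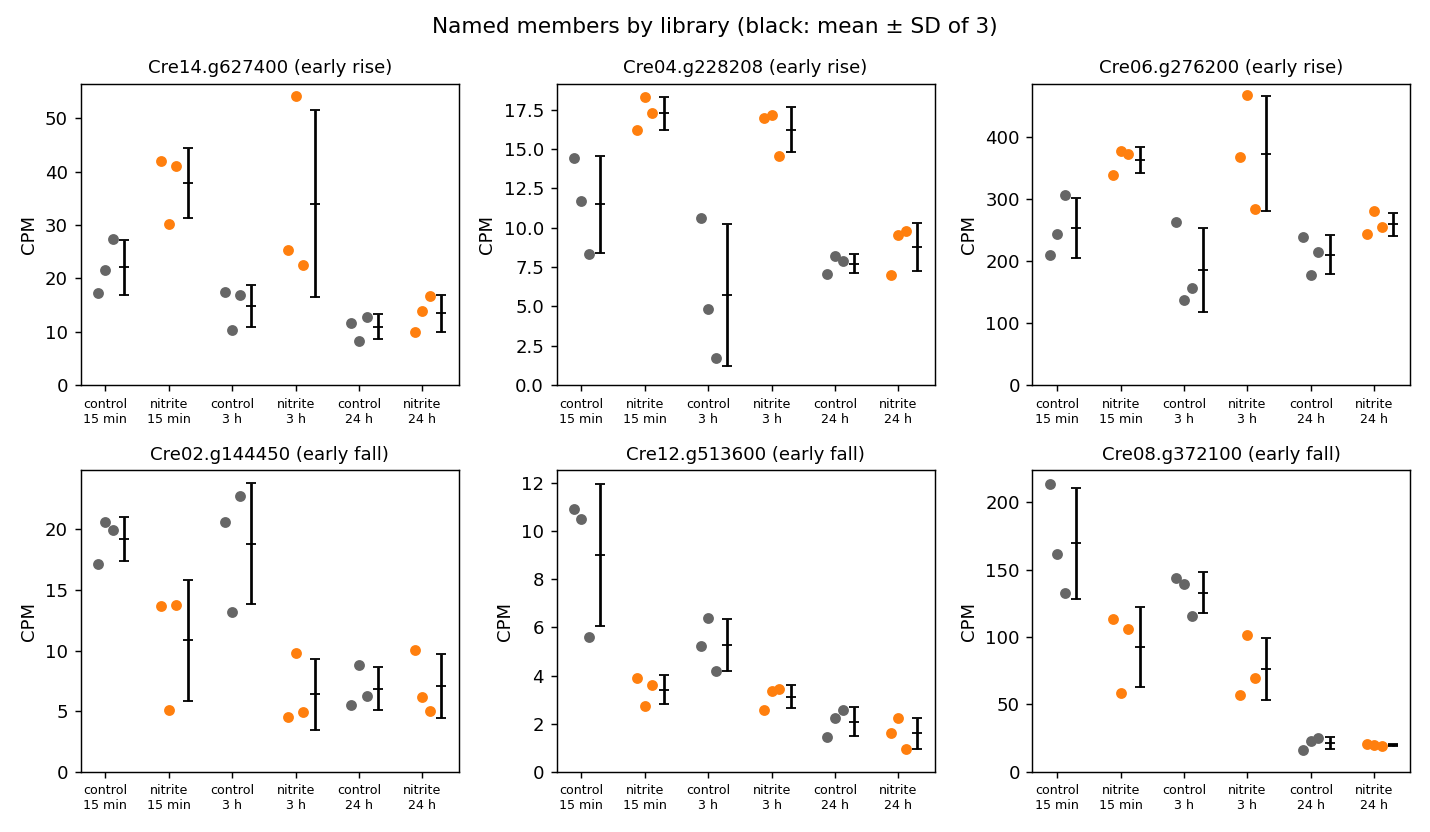
CPM of 3 early rises (top) and 3 early falls (bottom) in each library, with controls in grey, nitrite in orange and the mean ± SD of 3 libraries in black. At 24 h the arms overlap in all but Cre06.g276200, and for Cre08.g372100 they lie near 20 CPM after 57.2 to 214 CPM earlier.

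The members did not rest evenly on the 12 early libraries. For each gene, log2(CPM + 0.5) was set against its mean over all 18 libraries, and the median over members was taken in each library. For the early rises the median was 0.51 to 0.57 in the nitrite libraries of 15 min and -0.11 to 0.10 in their controls. At 3 h it was 0.52, 0.84 and 0.32 with nitrite and 0.02, -0.76 and -0.93 without, so control numbers 2 and 3 were low and number 1 was not. For the early falls the control libraries held 0.45 to 0.50 at 15 min and 0.49, 0.49 and 0.89 at 3 h, the highest being control 3 h number 3. That library was the lowest of the 12 early libraries in 13 of the 25 rises and the highest of the 12 in 21 of the 34 falls. Over all genes tested it was lowest in 21% and highest in 21.2%, and since it helped to choose the members their larger shares are a description.

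**Figure D3:**
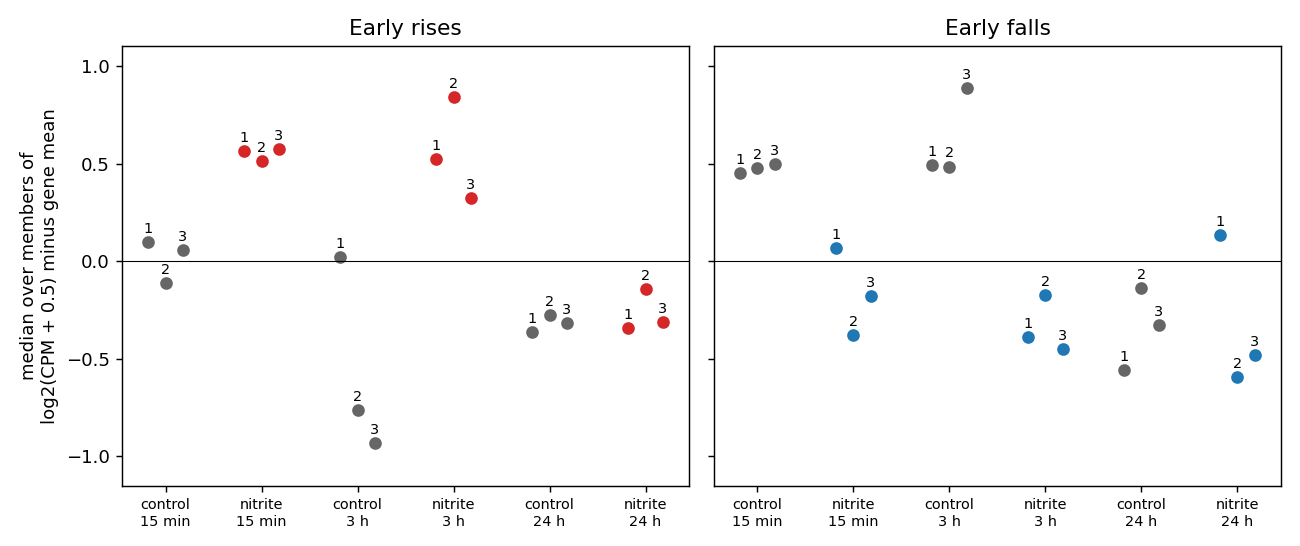
Median over the 25 early rises (left) and the 34 early falls (right) of log2(CPM + 0.5) minus each gene's mean, in each library. Numbers are replicate numbers within a group, controls are grey and nitrite libraries coloured. Control 3 h numbers 2 and 3 are lowest for the rises, at -0.76 and -0.93, and number 3 is highest for the falls, at 0.89.

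Without the 3 libraries that stand apart, the rule gave 7 rises and 16 falls, of which 6 and 15 were among the members. The median early ratios of the members were 1.51 and 0.628, and 6 rises and 16 falls of them still passed the early limit. All 25 rises had an early ratio above 1 and 33 of the 34 falls one below 1. The libraries kept had helped to choose the members, so these sides are a description. Leaving out control 3 h number 2 alone gave 12 rises, and leaving out control 3 h number 3 alone gave 16 rises and 22 falls. Without nitrite 3 h number 2 there were 16 rises. Other single libraries raised the counts, to 51 rises without control 15 min number 1, 44 without control 3 h number 1, 38 without control 15 min number 2, and 72 falls without nitrite 15 min number 1. With no scaling of the libraries the rule gave 105 rises and 10 falls, of which 13 and 4 were members.

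The same measure was read in libraries that had no part in the choice. The rule was applied to the 12 libraries of a pair of replicate numbers, and the ratios were read in the 6 libraries of the remaining number. With number 2 left out, 19 rises were chosen. Their median early ratio in number 2 was 1.68, all 19 were above 1, and 20 falls had a median of 0.633 with 19 below 1. With number 3 left out, the medians in it were 1.30 for 44 rises and 0.647 for 23 falls. With number 1 left out, 86 rises and 103 falls were chosen, and their medians in number 1 were 1.07 and 0.857, against 0.992 for all genes. The share past the early limit in the number left out was 52.6% of rises for number 2, 20.5% for number 3 and 5.81% for number 1, while 6.87%, 8.41% and 3.60% of all genes were at or above 1.6. In numbers 2 and 3 the chosen genes thus lay further from all genes than in number 1, where few passed the limit. Numbers 2 and 3 are not free of each other's library traits. Control 3 h numbers 2 and 3 shared a shift of long against short genes, described below (-0.24 and -0.63 against 0.16 in number 1). A library used to choose and one left out could thus carry the same shift, and its part in these medians was not tested.

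In the same libraries the 24 h ratio held less closely to the window than in the libraries used to choose. It lay between 0.8 and 1.25 in 44.2%, 47.4% and 43.2% of the chosen rises for numbers 1, 2 and 3, and in 33.0%, 50% and 43.5% of the chosen falls. Among all genes the shares were 33.4%, 31.0% and 40.2%. The precision at 24 h was limited in the full data too. The 95% interval of the 24 h log2 fold change from edgeR's fit still held the gene's own early log2 ratio for 13 of the 25 rises and 11 of the 34 falls. For Cre14.g627400 that interval ran from -0.36 to 0.97, around 0.31, and for Cre02.g144450 from -0.76 to 0.83. A ratio within the window is therefore no proof that the arms were equal.

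By single times, the median ratio of the early rises was 1.48 at 15 min and 2.01 at 3 h, and that of the falls 0.663 and 0.507. The ratio was further from 1 at 3 h in 21 of the 25 rises and 28 of the 34 falls. Among genes at or over the floor of 5 CPM the same held for 66.5% of those with an early ratio above 1 and 70.4% of those below 1. Of the rises 6 passed 1.6 at 15 min and 21 at 3 h, and of the falls 12 and 30 passed 0.625. All 25 rises were above 1 at both times, while 32 of the 34 falls were below 1 at 15 min. These ratios follow the labels, also for the nitrite libraries of number 2, which lay with the other early time. In Cre02.g095087 the 3 h ratio of 1.34 rested on number 2, at 69.2 CPM. Its other nitrite libraries of 3 h, at 15.5 and 12.5 CPM, were below its controls of 3 h. The median log2 change of the nitrite effect from 15 min to 3 h was 0.49 for rises and -0.38 for falls. Without the 3 libraries that stand apart it was 0.25 and -0.36. The rule pooled these very ratios, so they are a description of the members.

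The step from 15 min to 3 h was fitted within each arm with edgeR's quasi-likelihood test over all 13564 genes and Benjamini-Hochberg adjustment. A gene is said below to have risen or fallen where the adjusted p was under 0.05. The libraries of these steps are those that chose the members, and a control library of 3 h that is low in a gene both favours its choice as a rise and lowers its control step. The counts for members are therefore given beside those for all genes as a description, and nothing is read from them.

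In the nitrite arm no member passed between 15 min and 3 h, nor did any of the 13564 genes (0%). At an unadjusted p under 0.05 there were 0 rises, 2 falls and 197 genes in all (1.45%), and DESeq2 called 0 members. Among the rises the lowest p value was that of Cre12.g555803 (chromosome 12, 9677464 to 9683817). It held 7.41 ± 1.45 CPM at 15 min and 10.1 ± 0.826 CPM at 3 h. Among the falls it was that of Cre01.g002900 (chromosome 1, 527090 to 528815), with 5.85 ± 2.06 and 3.39 ± 0.805 CPM (SD, n = 3 each).

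In the control arm 0 of the 59 members passed, where 0.87% of all genes rose and 0.391% fell. At an unadjusted p under 0.05 there were 10 rises (40%), 10 falls (29.4%) and 3121 genes in all (23.0%). DESeq2 called 2 rises (8%), 5 falls (14.7%) and 4.92% of all genes. Without scaling the median of all genes in this step moved from 0.01 to -0.32 and no gene passed.

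Cre04.g223100 (chromosome 4, 2662125 to 2666375) and Cre06.g296650 (chromosome 6, 6997726 to 6998636) had the lowest p values of the members in the control arm. Cre04.g223100, an early rise, held 1.83, 1.17 and 1.15 CPM at 15 min and 5.77, 4.96 and 3.21 CPM at 3 h without nitrite. With nitrite it was already at 3.80, 7.95 and 4.75 CPM at 15 min, and its ratio was 3.19 at 15 min and 1.41 at 3 h. Cre06.g296650, an early fall, held 1.25, 1.29 and 2.58 CPM at 15 min and 2.73, 8.78 and 15.1 CPM at 3 h without nitrite. In both genes every control library of 3 h was above those of 15 min. Among the rises Cre17.g730450, described above, came next. Among the falls it was Cre06.g278264, with 3.07 ± 0.198 CPM at 15 min and 7.92 ± 2.17 CPM at 3 h in controls.

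The change of the nitrite effect from 15 min to 3 h passed in 0 members and in 0% of all genes, also with DESeq2 for the members. At an unadjusted p under 0.05 there were 3 rises (12%), 2 falls (5.88%) and 814 genes in all (6%). The lowest adjusted p of a member in edgeR's fit was 0.812. Among the genes at that value was Cre01.g007200 (chromosome 1, 1426468 to 1432253), an early fall with 1 library far from the rest. Its control libraries of 3 h held 15.0, 24.9 and 110 CPM, the last in number 3, while its other 15 libraries stood between 13.8 and 23.4 CPM.

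Without the 3 libraries that stand apart the same steps gave more calls, among members and among all genes. A pair of these libraries was set aside for lying with the nitrite libraries of the other early time, which is the difference under test, so the calls are conditioned on it and their p values are not given. In the nitrite arm 4 early rises rose and 5 fell between 15 min and 3 h, while 10.2% of all genes rose and 10.7% fell. Of the early falls 2 rose and 8 fell. In the control arm 3 rises rose and 3 fell, and 3 falls rose and 2 fell, against 5.99% of genes up and 6% down. The change of the nitrite effect was called in 1 member, where it was called upward in 0.00729% and downward in 0.0802% of all genes. That member was Cre02.g095087 (chromosome 2, 3308258 to 3313916), an early rise. With nitrite it held 101, 15.6 and 57.7 CPM at 15 min and 15.5, 69.2 and 12.5 CPM at 3 h, so number 2 was low at 15 min and high at 3 h. Its early controls lay between 18.3 and 33.0 CPM. The remaining groups of 2 libraries were assumed to vary like the others in the fit.

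By 24 h more members had fallen than had risen when both arms were averaged. The mean of both arms at 24 h was compared with the mean of both arms at 15 min and 3 h, a contrast that the ratio of the arms does not fix, although the early libraries enter both. Of the 25 early rises, 14 fell by 24 h, 1 rose and 10 did not pass. Of the 34 early falls, 18 fell, 3 rose and 13 did not pass. Those that rose were Cre16.g674179, Cre02.g111029 and Cre11.g467685 (edgeR adjusted p = 0.0166, 0.0229 and 5.4e-05), named after their values were seen. Over all genes, 35.7% fell and 33.4% rose, and over the 8692 genes that reach the rule's floor of 5 CPM, which does act on the early level, 37.2% fell and 34.5% rose. The median change was -0.53 for the rises, -0.58 for the falls and -0.04 for all genes. Without the 3 libraries that stand apart, 14 rises fell and 3 rose, and 18 falls fell and 3 rose, against 36.8% down and 35.9% up over all genes. Without scaling the median of all genes moved to -0.42, and 16 rises and 23 falls fell, with 46.4% of all genes called down and 17.2% up. In bulk RNA, fewer cells of a type and less RNA per cell cannot be told apart.

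Cre08.g372100 and Cre09.g398450 had the clearest fall among the early falls. Cre08.g372100 dropped by 2.46 as a log2 fold change (SE 0.17, edgeR adjusted p = 6.4e-11), and all its 24 h libraries lay below its early ones in both arms. Cre09.g398450 (chromosome 9, 1432719 to 1434759) nearly lost its reads. It had 529 reads over the early control libraries and 3 at 24 h, a ratio after scaling of 0.0119 (95% counting interval 0.00244 to 0.0348). With nitrite it had 320 early and 2 at 24 h, a ratio of 0.0197 (0.00237 to 0.0716). Its call over both arms (edgeR adjusted p = 1e-10) rests on these few reads at 24 h, and with both arms near 0 its 24 h ratio of 0.973 is set mostly by the 0.5 CPM added to each mean. At 24 h both arms were under 1 CPM in 1 early rise, Cre04.g223100, and 2 early falls, Cre09.g398450 and Cre06.g296650. As in Cre12.g513600, the 24 h ratios of the early falls Cre06.g296650, Cre06.g278264, Cre03.g189950 and Cre09.g397850 would lie below 0.8 without the added 0.5 CPM.

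Among the early rises, Cre04.g223100 fell by 3.71 (SE 0.43, edgeR adjusted p = 1.7e-07), to 7 reads in the control group and 5 in the nitrite group of 24 h. Cre12.g552700 (chromosome 12, 7886079 to 7909850) went the other way and was the single early rise that rose, by 1.72 (SE 0.15, edgeR adjusted p = 1.9e-09). It held 3.43 ± 0.244 CPM at 15 min and 2.92 ± 1.22 CPM at 3 h in controls, 5.21 ± 0.887 and 5.64 ± 0.795 CPM with nitrite, and 13.7 ± 3.19 and 14.1 ± 3.72 CPM at 24 h. Its 24 h libraries were all above the 12 early ones. Cre14.g627400 fell by 1.07 (SE 0.20, edgeR adjusted p = 7.1e-05) and Cre12.g513600 by 1.39 (SE 0.22, edgeR adjusted p = 7.2e-06). The most abundant early rise, Cre06.g276200, did not pass (-0.28, SE 0.14, edgeR adjusted p = 0.0925).

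The 24 h level, as the mean of both arms, was below both early levels in 13 of the 25 rises and 18 of the 34 falls, and above both in 2 rises and 1 fall. It lay between them in the other 10 rises and 15 falls. It was nearer the early nitrite level in 4 of those rises and 7 of those falls, and nearer the early control level in 6 and 8. The rule itself sets a wide gap between the early levels, and these positions were not counted over all genes. The counts are therefore a description, and nothing is read from them. Cre01.g053150 (chromosome 1, 7388167 to 7394161) is an early rise whose 24 h level was nearer the early nitrite level. Its controls held 50.3 ± 5.81 CPM at 15 min, 75.6 ± 2.83 CPM at 3 h and 84.9 ± 17.2 CPM at 24 h, while the nitrite arm held 115 ± 12.9, 110 ± 25.0 and 103 ± 23.4 CPM. In Cre08.g372100, by contrast, both arms lay below both early levels at 24 h.

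**Figure D4:**
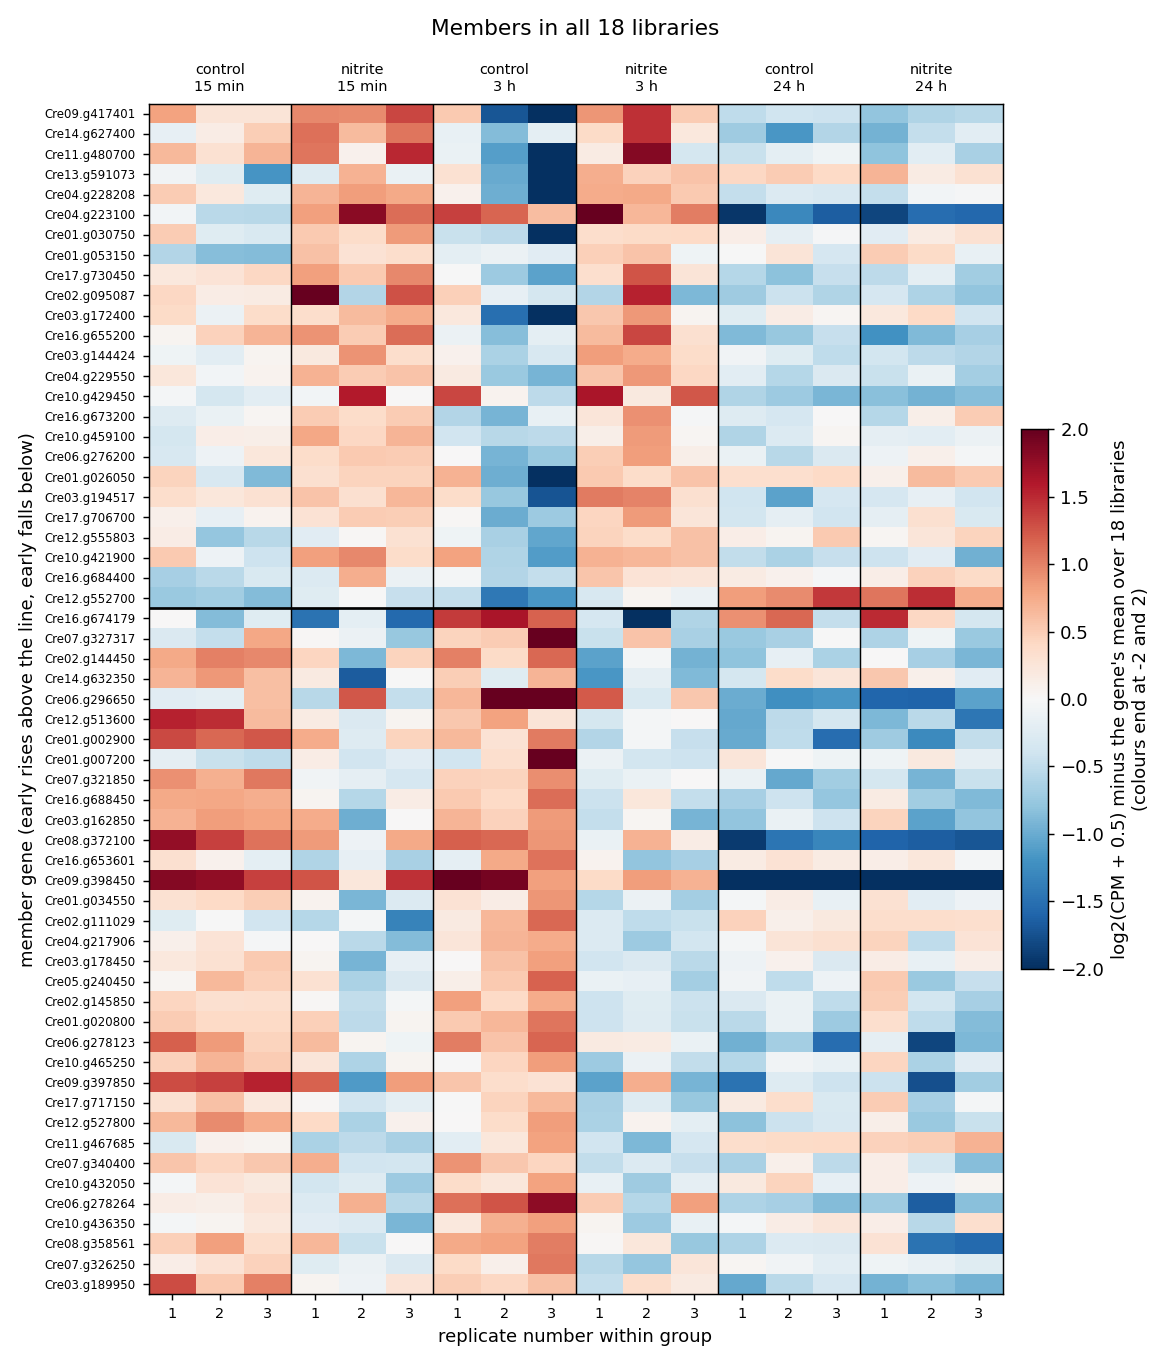
All 59 members (rows, early rises above the black line and early falls below, by size of early ratio) in all 18 libraries (columns, by group and replicate number). Colour is log2(CPM + 0.5) minus the gene's mean over the libraries. Rises are low in control 3 h numbers 2 and 3, and Cre08.g372100 and Cre09.g398450 are low in all 24 h libraries.

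The early rises were mostly long genes and the early falls mostly short ones, a property that the rule did not use. The span of a gene, from its start to its end with introns, had a median of 6624 bases for the rises and 2867 bases for the falls, against 4687.5 bases for all genes tested. With the tested genes split into 3 classes of near-equal size, 15 of 25 rises were in the long class (over 6109 bases) and 2 in the short class (up to 3607 bases). Of the falls, 24 of 34 were in the short class and 1 in the long class. Genes with an early ratio of at least 1.6 that stayed above the window at 24 h had a median span of 5522.5 bases, with 46.7% in the long class, and early falls that stayed below it had 2715 bases, with 65.6% in the short class. The difference in span is therefore not shown to be particular to genes whose early difference had gone.

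The libraries themselves differed in the same property. Over all genes tested, the median centred log2 level of the long class minus that of the short class was -0.63 in control 3 h number 3 and -0.24 in control 3 h number 2. In the other 10 early libraries it ran from -0.07 to 0.32. At 24 h it was -0.17, -0.12 and -0.16 in the controls and -0.16, 0.08 and -0.09 with nitrite. The part of this shift in the changes by 24 h was not tested. Control 3 h numbers 3 and 2 were also the libraries in which the early rises were lowest. Without the 3 libraries that stand apart, the 7 genes that met the rise rule had a median span of 4586 bases, and the 16 that met the fall rule 3441.5 bases. With the trend on span removed from each library, a choice made after seeing the data, the rule gave 21 rises and 23 falls, of which 13 and 17 were members. In that setting the median early ratio of the members was 1.70 for the rises and 0.622 for the falls, against 1.69 and 0.580. Of the members 17 rises and 18 falls still passed the early limit. All 25 rises were above 1 and all 34 falls below 1. The same libraries chose the members, so these sides are a description. The early log2 ratio of Cre12.g552700, with a span of 23772 bases, went from 0.69 to 0.38, while that of Cre14.g627400 went from 0.94 to 1.02. The part of gene span in the early differences was not tested beyond these values.

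**Figure D5:**
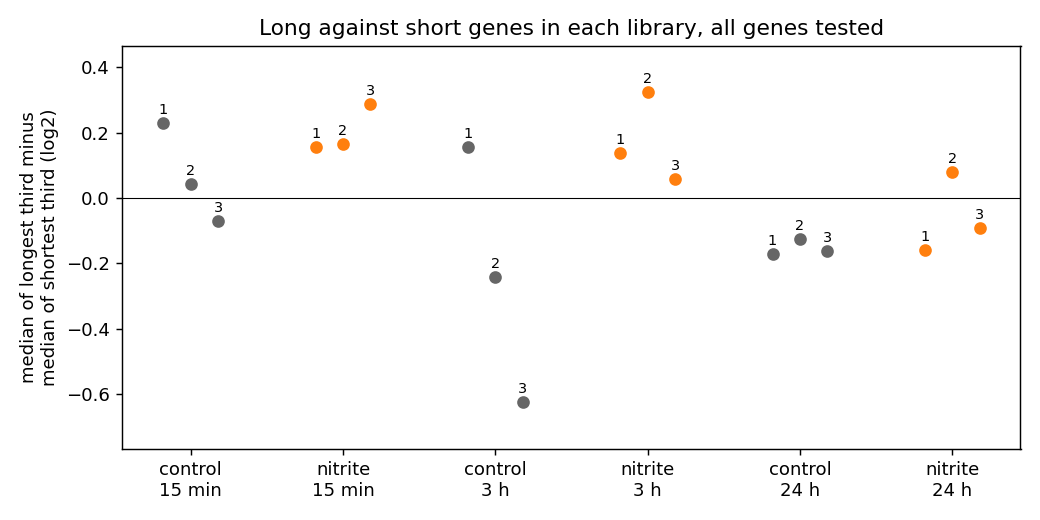
Median centred log2(CPM + 0.5) of the long class of genes tested minus that of the short class, each being 1 of 3 classes by gene span, in each library (numbers are replicate numbers, controls grey, nitrite orange). Control 3 h number 3 is lowest, at -0.63, and nitrite 3 h number 2 highest, at 0.32.

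The members were scattered over the genome. They lay on 16 chromosomes, with at most 7 on one (chromosome 1), and no 2 members stood within 3 genes of each other in gene order. None of the 59 spans overlapped that of another gene in the reference table, where 2.18% of all genes tested did. For chromosomes and gene order no value over all genes was computed. The SD of log2(CPM + 0.5) within groups, averaged over the 6 groups, had a median of 0.34 for the rises and 0.33 for the falls. For all genes tested it was 0.28. In single groups the median SD was not always higher than that of all genes. For the rises it was 0.53 in the controls of 3 h against 0.28 for all genes, but 0.22 against 0.28 in the nitrite libraries of 15 min. For the falls it was 0.49 against 0.28 in the nitrite libraries of 15 min and 0.45 against 0.22 in those of 24 h. It was 0.17 against 0.20 in the controls of 15 min. These libraries chose the members, so the spread is a description.

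A set of 22 loci in 6 lists, entered from prior knowledge that the files cannot check, was searched for members. It held 1, Cre08.g372100, on a list of 6 chaperone loci (chaperones assist protein folding). Over the day 5 of these 6 loci fell in the test of both arms and 1, Cre02.g090850, did not pass (0.09, SE 0.09), where 35.7% of all genes fell. Their early ratios ran from 0.559 to 1.12. The next lowest was Cre09.g386750, at 0.650, with a 24 h ratio of 1.39, outside both limits of the rule.

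No member was among the 3 loci of the nitric oxide list, the 2 of the glyoxylate list, the 2 of the alternative oxidase list and the 4 of the tubulin list. Of the 5 nitrate and nitrite loci 2 could be tested, and neither was a member. Cre09.g410800 had an early ratio of 0.522, past the limit for falls, but its early means were under the floor. They were 1.68 CPM with nitrite and 3.67 CPM without. Its 24 h ratio of 0.744, on 0 and 0.17 CPM, was also outside the window. Cre03.g177700 had an early ratio of 1.25 and a 24 h ratio of 0.552. For the nitric oxide list early ratios ran from 0.722 to 1.21. The glyoxylate loci, entered for the route from acetate to sugar precursors, had early ratios of 1.49 and 1.53 and 24 h ratios of 2.83 and 2.69, so that both were further from 1 at 24 h. The tubulin loci, entered for the subunits of microtubules, had early ratios from 0.590 to 0.745 and 24 h ratios from 1.22 to 1.84. In the test over the day, 2 of 3 nitric oxide loci, 2 of 4 tubulin loci and 1 of 2 nitrate and nitrite loci fell, both glyoxylate loci rose, and 0 of 2 alternative oxidase loci passed.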

How the data were processed

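The authors deposited whole-number counts of reads per gene, 1 table per library, from strand-specific libraries of polyadenylated RNA. TopHat2 2.0.13 and HTSeq are named, per the submitters' processing notes. For the genome build and the counting options, the label text is silent (not given in the sources used here). Each table's 5 summary lines were left out of totals and tests. Reads outside genes made up 0.892% to 1.67% of a table and ambiguous reads 0.0597% to 0.439%.

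Features with few reads were dropped with filterByExpr of edgeR (groups as design, minimum count 10). Tests used edgeR 4.0.16 under R 4.3.3, a robust quasi-likelihood F test on all 18 libraries with 6 group means and 12 residual degrees of freedom, and Benjamini-Hochberg adjustment over the 13564 genes. SE is the log2 fold change over the square root of F. Intervals from reads cover counting error only. The nuclear identifiers carry the suffix v5.5, and 17738 matched a locus tag in RefSeq's gene table of assembly Chlamydomonas_reinhardtii_v5.5, the source of positions and spans.

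The members and lists were chosen with earlier results of these data known. Genes named are, for rises and falls separately, the 2 with the largest early ratio and no overlap at either early time, the 2 with the highest early CPM, the 2 with the lowest adjusted p in each test, and members on a locus list. Alternatives were relative log expression factors, no scaling, no filter, DESeq2 1.42.0, a replicate block, and libraries left out.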

Additional observations from a re-analysis of the deposited data

How the results depend on the processing

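Counts are of early rises and early falls, against 25 and 34 in the report. Without scaling the rule gave 105 and 10, without the 3 libraries that stand apart 7 and 16, and without these and control 3 h number 2 it gave 3 and 20, the last being a choice made after seeing the data. Leaving out 1 library at a time gave 12 to 51 rises and 22 to 72 falls. In the left-out replicate number, the middle of 3 median early ratios of the rises was 1.96 without scaling, where the median of all genes in that number was 1.35, against 1.30 and 0.990 with scaling. In the control arm from 15 min to 3 h, 0 members were called in the report, DESeq2 called 2 rises and 5 falls, the fit without the 3 libraries 6 and 5, and that also without control 3 h number 2 called 2 rises. With single libraries left out it was 0 to 9 rises and 0 to 5 falls, the highest without control 3 h number 1. There were calls also without nitrite 15 min number 2 and without nitrite 3 h numbers 1 and 2. Over all genes 0.87% rose and 0.391% fell in the report, and 5.99% and 6% without the 3 libraries. Calls over all genes were not counted with single libraries left out, nor without the 3 libraries and control 3 h number 2. Nothing is therefore read from the member counts of those fits, here and below. In the nitrite arm the fits without the 3 libraries, with or without control 3 h number 2, called 9 rises and 10 falls, and 0 of either with any single library left out. The change of the nitrite effect was called in 1 rise in both of these fits, and in 0 to 1 with single libraries left out (1 without control 3 h number 1). Rises that rose over the day numbered 3 in both fits, against 1, and 1 to 5 with single libraries left out (5 without control 3 h number 1, and 2 or 3 without control 15 min number 1, nitrite 15 min numbers 2 and 3 or nitrite 24 h number 1). Falls that rose numbered 3, 1 without scaling, 5 without the 3 libraries and control 3 h number 2, and 2 to 3 with single libraries left out.

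Single libraries decided the call over the day for 2 named genes. For Cre04.g228208 (edgeR adjusted p = 0.0237) it was 0.0531 without control 24 h number 1, 0.0633 without control 3 h number 1 and 0.0740 without nitrite 24 h number 1. For Cre03.g162850 (edgeR adjusted p = 0.0239) it was 0.0640 without control 24 h number 1, 0.0675 without nitrite 24 h number 2 and 0.0682 without nitrite 24 h number 3. Cre06.g276200, not called in the report, passed without scaling (-0.69, edgeR adjusted p = 0.00655), which moved the median of all genes from -0.04 to -0.42, and without the 3 libraries and control 3 h number 2 (-0.33, edgeR adjusted p = 0.0093). Other than this shift, the cause of these changes was not tested. Whether replicate numbers pair the samples was not settled. Of 45 same-numbered pairs 8 had deviations correlated over 0.1 (r from -0.78 to 0.40), and pairs of unlike numbers were not set beside them. With the replicate block 13 rises and 18 falls fell over the day, 1 and 3 rose, and 0 members were called in the other tests, and it moved no count by over 1.5 times. Low read numbers limit the falls more than the rises, with under 10 CPM in 20 of 34 falls and 6 of 25 rises. Over all genes tested the median of the higher early mean was 7.76 CPM, so low levels are not particular to the falls.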
